A study of Mus musculus with 6 samples.

Results

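Interferon-stimulated and antigen presentation genes were described in the mouse lung epithelial cell line MLE12, which was immortalized with the SV40 large T antigen. The 47 genes were chosen by name and not by a rule on their values, though earlier results of these data were known. All 47 were found among the 54532 genes of the deposited count table. RNA-seq had been done on 3 Ctrl shRNA samples, which received a control lentivirus, and on 3 Idh3α shRNA + Slc25a1 shRNA samples (knockdown below), which received a lentivirus against Idh3α and another against Slc25a1 at the same time. Each virus is listed at an MOI (infectious particles per cell) of 50. The knockdown cells thus took 2 lentiviruses, each at that MOI, while a single control virus is listed at the same MOI. As listed, the control dose was not raised to match. Virus was left on the cells for 16 h, and the culture then went on for 80 h. Idh3α is the catalytic subunit of a mitochondrial isocitrate dehydrogenase and Slc25a1 is the mitochondrial citrate carrier. The labels give the strain as C57BL/6J for every sample, they name no added interferon, and nothing states that the 3 samples of a group were separate infections, so p-values measure the spread between these samples, which may be technical. Any effect of a larger viral dose or a second lentivirus cannot be told apart from that of the knockdown.

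Cells sense foreign nucleic acid through cytosolic and endosomal receptors, which switch on type I and type III interferon genes. Secreted interferon binds its receptor, Janus kinases become active, and a factor that contains STAT2 and IRF9 then binds the interferon-stimulated response element (ISRE). Interferon-γ acts at the GAS element and through IRF1, and induces the immunoproteasome, peptide transporter and MHC class I genes as well as families of GTPases. Lentiviral infection is one stimulus that can engage the sensors, and airway and alveolar epithelial cells respond to all of these interferons.

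The promoters of 5 genes are shown because the results below turn on them. *Irf1* and *Ifi47* were the genes past the threshold in the edgeR fit without Ctrl shRNA replicate 2, *Isg15* and *Ifit1* are standard reporters of type I interferon, and *B2m* had the highest level. The sequences were taken from RefSeq (build GRCm38.p6), run from 250 bases before to 50 bases after the annotated start, are written 5′ to 3′ on the strand of the gene, and have motif matches in capitals. The motifs searched on both strands were the ISRE (TTTC, any 2 bases, then TTTC), the GAS element (TTC, any 3 bases, then GAA) and a narrow form of the NF-κB element (GGG, any 2 bases, then TTTCC). NF-κB sites with other letters were not searched, so no match does not show that a window lacks such a site. The *Irf1* window (chr11:53769764-53770063, plus strand) held 1 GAS match that began at position -90 from the start and no ISRE. The *Ifi47* window (chr11:49076337-49076636, plus strand) held none of the 3 motifs, and the rest of the gene was not searched. In the *Isg15* window (chr4:156200769-156201068, minus strand), 3 ISRE matches overlapped each other on the opposite strand, beginning at positions -78, -72 and -66. The *Ifit1* window (chr19:34640639-34640938, plus strand) held 2 separate ISRE matches at -104 and -85. The *B2m* window (chr2:122147437-122147736, plus strand) held an ISRE match at -139 and an NF-κB match at -126, both on the opposite strand.
Irf1: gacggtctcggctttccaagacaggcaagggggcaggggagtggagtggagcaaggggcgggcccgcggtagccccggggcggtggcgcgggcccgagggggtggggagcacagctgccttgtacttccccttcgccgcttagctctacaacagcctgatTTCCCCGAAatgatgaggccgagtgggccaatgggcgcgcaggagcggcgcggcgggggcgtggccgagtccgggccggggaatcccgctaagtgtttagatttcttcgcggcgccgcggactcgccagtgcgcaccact
Ifi47: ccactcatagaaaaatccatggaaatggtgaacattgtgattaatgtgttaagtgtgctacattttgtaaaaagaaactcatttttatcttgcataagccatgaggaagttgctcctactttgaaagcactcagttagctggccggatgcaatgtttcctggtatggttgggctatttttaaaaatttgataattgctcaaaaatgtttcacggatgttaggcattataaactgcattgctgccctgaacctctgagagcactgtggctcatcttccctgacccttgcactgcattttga
Isg15: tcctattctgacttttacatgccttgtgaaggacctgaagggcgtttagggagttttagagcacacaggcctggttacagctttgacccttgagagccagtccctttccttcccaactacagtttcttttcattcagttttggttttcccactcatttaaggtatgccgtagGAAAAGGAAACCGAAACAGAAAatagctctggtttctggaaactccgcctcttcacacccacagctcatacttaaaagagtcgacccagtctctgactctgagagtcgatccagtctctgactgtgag
Ifit1: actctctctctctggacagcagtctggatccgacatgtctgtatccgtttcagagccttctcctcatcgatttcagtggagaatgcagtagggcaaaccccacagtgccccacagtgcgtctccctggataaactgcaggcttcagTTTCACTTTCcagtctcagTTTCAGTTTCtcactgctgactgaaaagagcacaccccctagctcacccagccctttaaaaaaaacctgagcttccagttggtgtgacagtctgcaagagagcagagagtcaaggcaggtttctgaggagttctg
B2m: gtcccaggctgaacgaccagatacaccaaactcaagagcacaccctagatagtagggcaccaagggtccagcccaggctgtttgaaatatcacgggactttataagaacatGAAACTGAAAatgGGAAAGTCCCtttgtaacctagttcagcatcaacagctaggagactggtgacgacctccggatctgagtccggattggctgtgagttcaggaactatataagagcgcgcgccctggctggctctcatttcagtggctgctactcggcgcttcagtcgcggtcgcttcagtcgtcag

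Of the 47 genes, 38 had a promoter window in the RefSeq table. An ISRE match lay in a window of 17 of them (44.7%), against 3.44% of all 32851 windows of the same length and 3.99% of all genes with one. GAS matches were found in 11 of the 38 genes (28.9%, against 9.55% of all genes and 8.30% of all windows) and the NF-κB letters in *B2m* alone (2.63%, against 1.89% of all genes and 1.63% of all windows). No promoter window was given for *Parp14*, *Mx2*, *Usp18*, *Ifi27*, *Parp9*, *Mx1*, *Oas2*, *Rtp4* and *Oas1b*. A match describes these letters in this window and does not show that a factor was bound there.

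Total counts ran from 27273502 to 28535653 per library. Ctrl shRNA replicate 2 stood apart from the other 5 libraries, with 16681 genes detected against 19902 to 23147, and with 27.2% of its counts in its 100 most abundant genes against 12.6% to 12.9%. The targeted mRNAs were checked first. *Idh3a* measured 79.8, 137 and 93.0 CPM (counts scaled to one library size with TMM factors) in Ctrl shRNA replicates 1, 2 and 3 and 58.5, 57.9 and 55.5 CPM in the knockdown replicates, and *Slc25a1* 103, 98.7 and 108 CPM against 68.9, 69.6 and 63.0 CPM. Every knockdown library was below every control for both genes, which did not pass the threshold with all 6 libraries (edgeR adjusted p = 0.254 and 0.104) and did without Ctrl shRNA replicate 2 (edgeR adjusted p = 0.0142 and 0.00649). Mitochondrially encoded genes took 6.49% of its counts, against 1.57% to 1.80% in the others. Fold changes are therefore given with and without that library, and the sum of the SDs used below for gaps between levels is over all 3 controls unless stated. The fits share the other 5 libraries, so the one does not repeat the other independently.

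In control cells the class I genes *B2m*, *H2-D1* and *H2-K1* were abundant, while *Tap1* and *Psmb9* (5.26 and 5.97 CPM per kb) were near the median of all genes and many antiviral genes were below it. Levels were compared between genes as CPM per kb of gene length. The 47 genes had a median of 3.26 CPM per kb in Ctrl shRNA (2.58 without replicate 2), against 5.58 for all genes tested. Of the 47, 4 reached 100 CPM per kb, 8 lay from 10 to under 100, 23 from 1 to under 10, and 12 were under 1. By role, the median level was 76.3 CPM per kb for the 6 antigen presentation genes, 11.5 for the 4 other interferon-inducible genes, 5.91 for the 4 signalling factors, 4.74 for the 7 ISG15, ubiquitin and ADP-ribosylation factors, 3.12 for the 7 GTPases and 1.05 for the 19 antiviral effectors. Without replicate 2 these medians were, in the same order, 80.8, 9.81, 6.35, 5.02, 2.27 and 0.83 CPM per kb.

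*B2m*, the light chain of every MHC class I molecule, headed the order with 1499 ± 1667 CPM per kb (SD, n = 3), or 537 without replicate 2. *H2-D1* and *H2-K1*, classical class I heavy chains, stood at 338 ± 38.7 and 132 ± 18.8 CPM per kb (SD, n = 3 each). Between them came *Bst2*, which encodes tetherin, a membrane protein that holds budding virions at the cell surface, with 238 ± 113 CPM per kb. Over all 3 controls, no neighbours among these 4 differed beyond the sum of their SDs. Without replicate 2, *B2m* (537 ± 83.4, SD, n = 2), *H2-D1* (356 ± 34.8) and *Bst2* (176 ± 51.3) did, and *Bst2* and *H2-K1* (142 ± 13.3) did not. The gap from *H2-K1* down to *Ifi27* (43.9 ± 13.1 CPM per kb) and the gap from *Ifi27* to *Ifi35* (20.3 ± 3.50 CPM per kb) exceeded that sum.

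Over all 3 controls, from *Ifi35* down to *Eif2ak2* (12.9 ± 0.99 CPM per kb), 7 genes stood in which no neighbours differed beyond their SDs, and the next gap wider than the SDs was from *Eif2ak2* to *Parp9* (7.96 ± 0.32 CPM per kb). From *Parp9* to *Irgm2* (1.03 ± 0.08 CPM per kb) no neighbours differed beyond their SDs. The 12 genes under 1 CPM per kb began with *Gbp3* (0.66 ± 0.10) and held *Ifit1*, *Oas1a*, *Usp18*, *Ifit3b*, *Cmpk2*, *Ifi44*, *Mx2*, *Rsad2*, *Oas2*, *Oas3* and *Mx1*. Gaps wider than the SDs were those from *Irgm2* to *Gbp3*, from *Ifi44* to *Mx2*, and from *Oas3* (0.027 ± 0.015 CPM per kb) to *Mx1*, which had no counts in the controls. Over all 3 controls 6 of the 46 gaps between neighbours were wider than the SDs, and without replicate 2 there were 14. *Isg15*, at 15.1 ± 10.4 CPM per kb over all controls (SD, n = 3), then stood at 9.16 ± 0.87 (SD, n = 2), below *Eif2ak2* (12.4 ± 0.55), and the gap from *Ifit2* (16.0 ± 0.97) to *Eif2ak2* was wider than the SDs. Between *Parp9* and *Irgm2* there were then 4 such gaps, from *Stat2* to *Tap1*, *Parp14* to *Ifi47*, *Ifi47* to *Gbp7* and *Gbp7* to *Samd9l*. *Rsad2*, which encodes viperin, had 9, 18 and 14 counts in the controls and 11, 10 and 15 in the knockdown libraries. *Mx1*, listed with the antiviral effectors, had 0 counts in every control library and 1 count in knockdown replicate 1. The limit that a count of 0 allows is 3 counts, which come to between 0.0968 and 0.152 CPM per control library for counting error alone. A count of 0 here says that *Mx1* was not detectable at this depth.

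**Figure D1:**
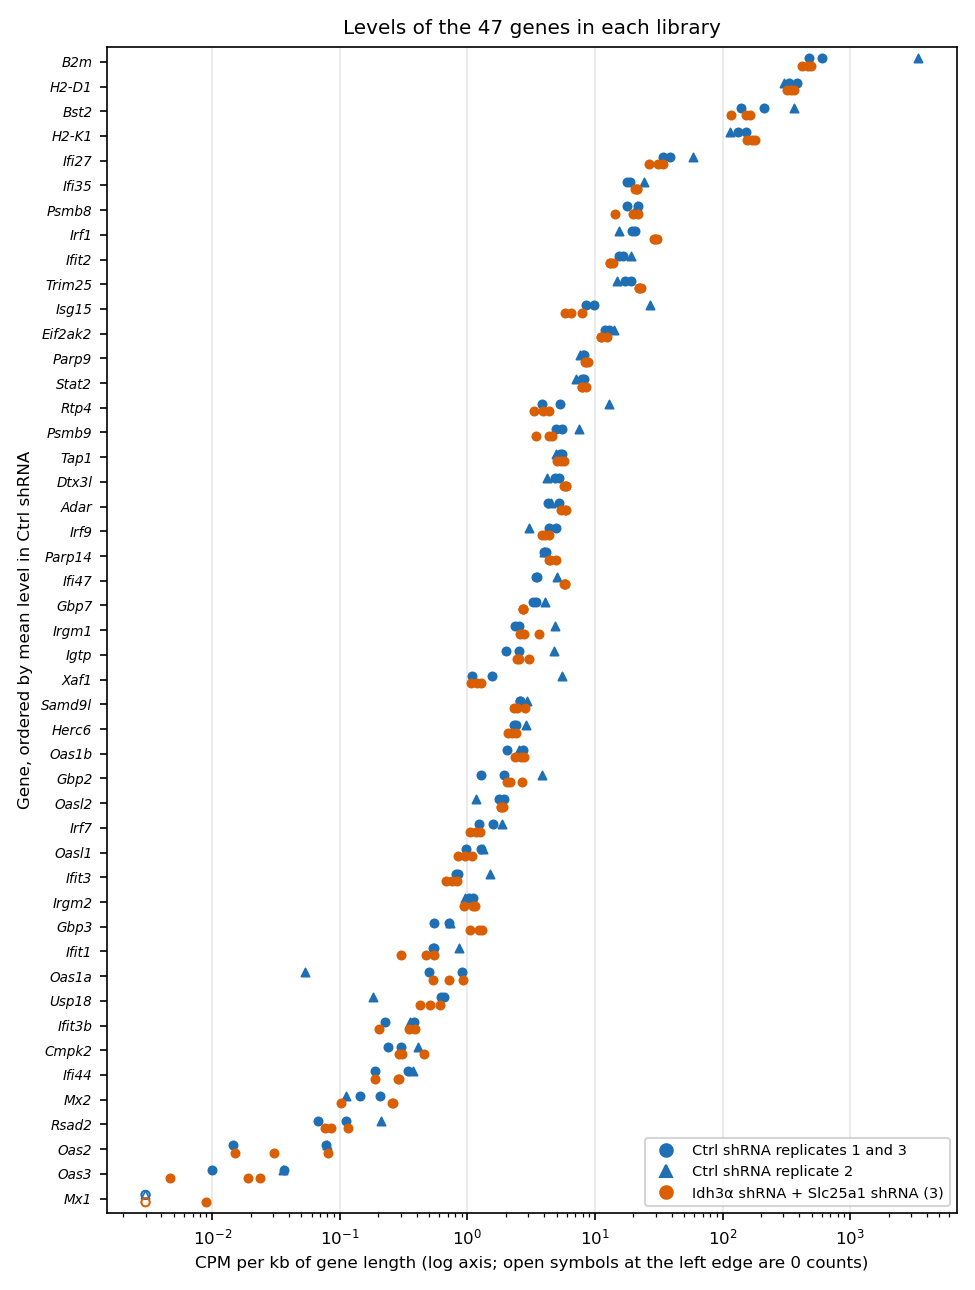
CPM per kb of gene length (log axis) for each of the 47 genes in each of the 6 libraries, ordered by the control mean; each point is 1 library. Levels span from *B2m* at the top to *Mx1* at the bottom, and Ctrl shRNA replicate 2 (triangles) lies apart for *B2m*, *Isg15*, *Rtp4* and *Xaf1*. The knockdown points lie above all their controls for 9 of the 44 genes tested, among them *Irf1*, *Ifi47* and *Gbp3*, and below them for 5.

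With all 6 libraries, edgeR called none of the genes, DESeq2 called 2 higher, and limma with sample quality weights called 6 higher and 2 lower. Their median fold change by edgeR was close to that of all genes. In these bulk libraries, fewer expressing cells and less RNA per cell cannot be told apart. With all 6 libraries, 44 of the 47 were tested, and 0 were higher and 0 lower at an adjusted p under 0.05 (quasi-likelihood test of edgeR with Benjamini-Hochberg adjustment over 15307 genes, of which 0.0588% were higher and 0.00653% lower). At an unadjusted p under 0.05, 7 were higher and 4 lower (7.47% and 6.65% of all genes). The log2 fold change of knockdown over control was positive for 20 genes and negative for 24, with a median of -0.03, against -0.01 over all genes tested. The range ran from -1.71 for *B2m* to 0.85 for *Gbp3*.

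Without Ctrl shRNA replicate 2, 45 genes were tested, 2 were higher (*Irf1* and *Ifi47*) and 0 were lower at the adjusted threshold (edgeR, 1.11% and 0.675% of 15709 genes). At an unadjusted p under 0.05 there were 9 higher and 5 lower genes (9.54% and 10.3% of all genes), and these held the 7 and the 4 found with all libraries. The median was -0.02, against -0.02 over all genes tested. Of the 44 genes tested in both fits, 14 were positive in both, 19 were negative in both and 11 differed in sign. DESeq2 with all libraries called 2 genes higher (*Irf1* and *Gbp3*) and 0 lower (1.69% and 1.12% of the genes with an adjusted p). DESeq2 without Ctrl shRNA replicate 2 called *Irf1*, *Trim25*, *Ifi47* and *Gbp3* higher and 0 lower (4.22% and 2.84% of the genes with an adjusted p, and 0 lower by edgeR too). Limma with sample quality weights called 6 higher (*Irf1*, *Adar*, *Trim25*, *Dtx3l*, *Ifi47* and *Gbp3*) and 2 lower (*Ifit2* and *Gbp7*), against 8.67% and 6.34% of all genes.

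The intervals show what size of change these libraries could miss. With all 6 libraries, the upper 95% bound of the log2 fold change was below 1, a doubling, for 40 of the 44 genes, and the whole interval lay between -1 and 1 for 27. Without Ctrl shRNA replicate 2 these numbers were 39 and 38 of 45. The median standard error was 0.19 in the first fit and 0.15 in the second.

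**Figure D2:**
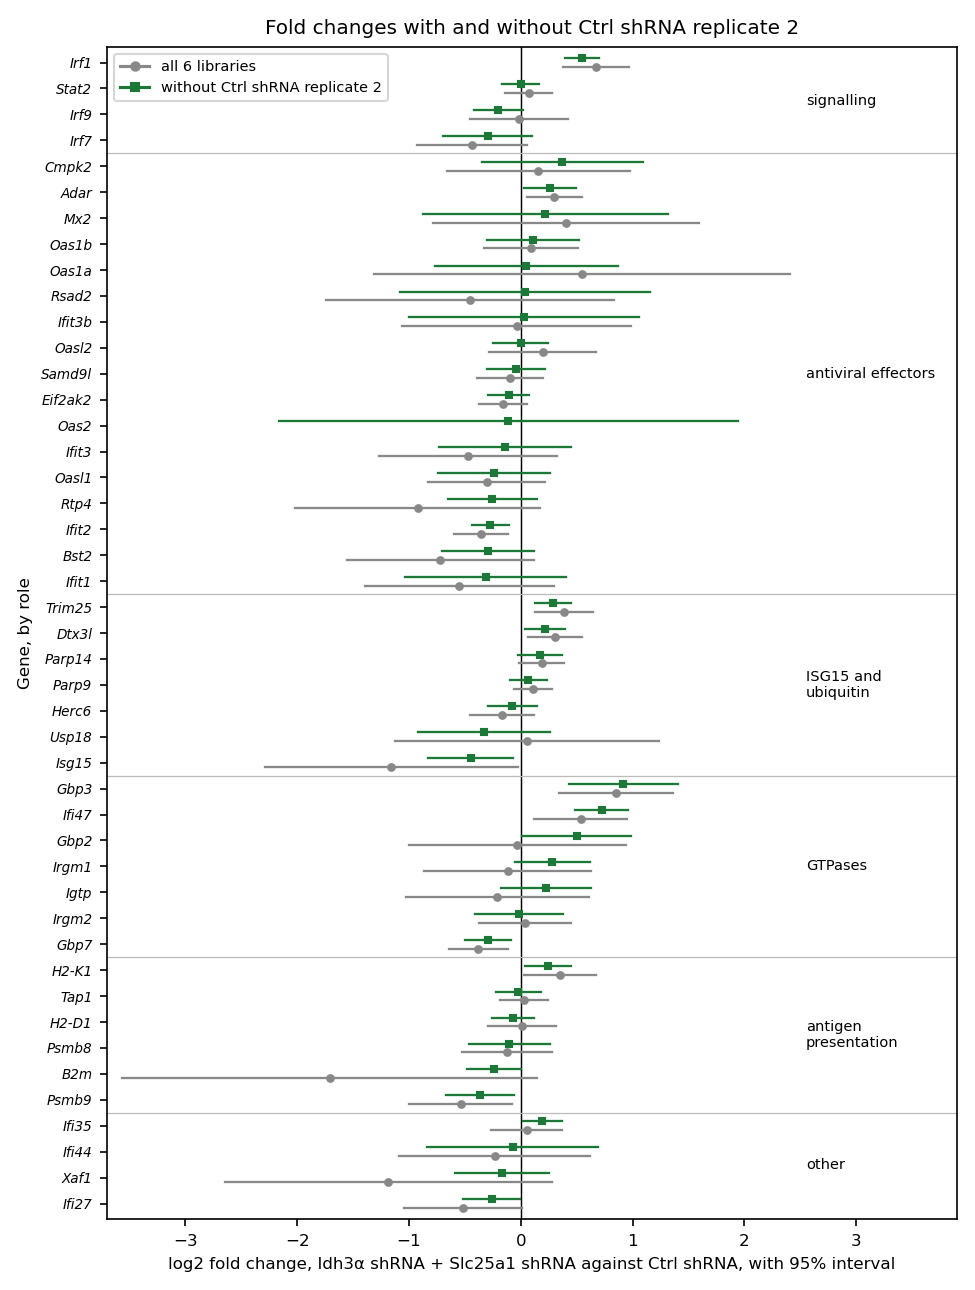
Log2 fold change of knockdown over Ctrl shRNA with its 95% interval for each gene tested, by role, with all 6 libraries (grey circles) and without Ctrl shRNA replicate 2 (green squares). Most intervals cross 0, and the grey intervals of *B2m*, *Xaf1*, *Rtp4* and *Isg15* are wider than the green ones. The intervals of *Irf1*, *Ifi47*, *Gbp3*, *Trim25*, *Dtx3l*, *Adar* and *H2-K1* lie above 0 in both fits. Those of *Ifit2*, *Gbp7*, *Isg15* and *Psmb9* lie below 0 in both.

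The control and knockdown libraries did not overlap for 14 of the 44 genes. The knockdown libraries were all higher for 9 genes (*Irf1*, *Trim25*, *Dtx3l*, *Parp9*, *Parp14*, *Adar*, *Ifi47*, *Gbp3* and *H2-K1*), against 14.7% of all genes tested, and all lower for 5 (*Isg15*, *Ifit2*, *Gbp7*, *Psmb9* and *Ifi27*), against 10.7%. Without Ctrl shRNA replicate 2 the numbers were 12 higher and 7 lower of 45 genes, against 20.3% and 17.3% of all genes.

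Upstream of the 47 genes, the interferon ligand genes examined were all but silent when the cells were sampled. Other interferon genes and earlier times were not examined. The 10 ligand genes examined, among them *Ifnb1*, *Ifng* and *Ifnl3*, had 0 counts in 5 libraries and 2 counts, both of *Ifna2*, in knockdown replicate 2, and none passed the count filter of the edgeR fits. All 6 interferon receptor genes were expressed, and *Ifnar1*, a chain of the type I receptor, measured 141, 133 and 139 CPM in the controls and 147, 139 and 141 CPM in the knockdown libraries. The groups overlapped for *Ifnar1*.

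The 4 signalling factors among the 47 genes are transcription factors, with a median log2 fold change of 0.03, or -0.10 without Ctrl shRNA replicate 2, and with all libraries *Irf1* was the one whose groups did not overlap. *Irf1* (ENSMUSG00000018899, chromosome 11 of GRCm38, 53770014 to 53778374), which acts downstream of interferon-γ and also of NF-κB, measured 82.5, 61.1 and 78.0 CPM in Ctrl shRNA and 121, 118 and 115 CPM in the knockdown libraries. All knockdown libraries were above all controls, and Ctrl shRNA replicate 2 was the lowest. The log2 fold change was 0.68 (SE 0.12, edgeR adjusted p = 0.179) with all libraries and 0.55 (SE 0.07, edgeR adjusted p = 0.0115) without Ctrl shRNA replicate 2, a 1.46-fold rise with a 95% interval of the log2 value from 0.39 to 0.70. Over all alternatives its adjusted p ran from 7.09e-09 (DESeq2 without Ctrl shRNA replicate 2) to 0.675 (edgeR without knockdown replicate 2). *Ifi47*, *Gbp3*, *Trim25*, *Ikbke* and *Tlr7* had that same adjusted p in the latter fit, so this upper end is not particular to a gene. *Gm17334* overlaps *Irf1* by 907 bases on the opposite strand and had a mean of 1.03 CPM.

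*Irf7*, the factor that amplifies type I interferon, had 4.62, 7.09 and 6.00 CPM in the controls and 4.74, 3.92 and 4.38 CPM in the knockdown libraries, which overlapped. Its log2 fold change was -0.44 (SE 0.20, edgeR adjusted p = 0.365), and -0.30 without Ctrl shRNA replicate 2 (edgeR adjusted p = 0.379). *Irf9* and *Stat2*, whose products are parts of the factor that binds the ISRE, had log2 fold changes of -0.02 and 0.07 (edgeR adjusted p = 0.969 and 0.697). Without Ctrl shRNA replicate 2 these were -0.20 and -0.0017 (edgeR adjusted p = 0.288 and 0.994), and the *Irf9* knockdown libraries were then all below the controls. *Irf7* overlaps *Phrf1*, which had a mean of 113 CPM, by 45 bases on the opposite strand, and *Irf9* overlaps *Rnf31* by 123 bases on the same strand.

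Of the 19 antiviral effectors, 16 were tested with all libraries and none passed the threshold of edgeR. Limma with sample quality weights called *Adar* higher (adjusted p = 0.0169) and *Ifit2* lower (adjusted p = 0.0179), against 8.67% higher and 6.34% lower of all genes. The group had a median log2 fold change of -0.13, or -0.04 over 17 genes without Ctrl shRNA replicate 2. The genes with the largest change in each direction were both set apart by Ctrl shRNA replicate 2. *Oas1a*, which makes the 2-5A activator of RNase L, measured 0.94, 0.10 and 1.71 CPM in the controls and 1.34, 1.02 and 1.75 CPM in the knockdown libraries. Its log2 fold change was 0.55 (SE 0.77, edgeR adjusted p = 0.731) and 0.05 without Ctrl shRNA replicate 2 (edgeR adjusted p = 0.951). *Rtp4*, a chaperone of G protein-coupled receptors, measured 8.14, 27.5 and 11.4 CPM against 9.24, 7.09 and 8.40 CPM. The log2 fold change of *Rtp4* was -0.92 (SE 0.45, edgeR adjusted p = 0.375), and -0.25 (edgeR adjusted p = 0.452) without the high control.

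*Bst2* measured 126, 326 and 192 CPM in the controls and 148, 106 and 138 CPM in the knockdown libraries, with overlap between the groups. Its log2 fold change was -0.72 (SE 0.34, edgeR adjusted p = 0.370), and -0.29 without Ctrl shRNA replicate 2 (edgeR adjusted p = 0.397). The *Ifit1* promoter above holds 2 ISRE matches, and the gene, which encodes a sensor of foreign RNA caps, had 44, 45 and 42 counts in the controls and 24, 44 and 37 counts in the knockdown libraries. The log2 fold change of *Ifit1* was -0.55, with a 95% interval from -1.39 to 0.30, and -0.31 without Ctrl shRNA replicate 2, from -1.03 to 0.41. *Adar*, the editor of double-stranded RNA, had a log2 fold change of 0.30, and *Eif2ak2*, which encodes the kinase PKR, one of -0.16 (edgeR adjusted p = 0.339 and 0.405), which were 0.26 and -0.11 without Ctrl shRNA replicate 2 (edgeR adjusted p = 0.206 and 0.481).

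*Oas3* and *Mx1* did not pass the count filter of either fit (edgeR adjusted p = 0.747 and 0.625 with no filter), and *Oas2* only without Ctrl shRNA replicate 2 (log2 fold change -0.11, edgeR adjusted p = 0.958). *Oas2* had 2, 7 and 10 counts in the controls and 2, 11 and 4 counts in the knockdown libraries, and *Oas3* 8, 5 and 2 against 5, 1 and 4 counts. Some values are uncertain because genes share sequence or overlap. *Ifit3* shares 51.2% of its 50-base sequences with *Ifit3b* and *Oas1a* shares 57.6% with *Oas1g*. *Oas1b* and *Mx2* are annotated as polymorphic pseudogenes, so their counts need not stand for a working product. *Rtp4* overlaps *Masp1* by 525 bases on the opposite strand and *Gm45338* by 39791 bases on the same strand, and the counting was not stated to use strand.

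The 7 ISG15, ubiquitin and ADP-ribosylation factors had a median log2 fold change of 0.11 (0.07 without Ctrl shRNA replicate 2), and none passed edgeR's threshold in either fit. *Isg15* (ENSMUSG00000035692, chromosome 4, 156199424 to 156200818), the ubiquitin-like modifier whose promoter holds the 3 overlapping ISRE matches, measured 6.46, 20.5 and 7.39 CPM in the controls and 5.98, 4.42 and 4.92 CPM in the knockdown libraries. All knockdown libraries were below all controls, the highest of them next to the lowest control. This gave a log2 fold change of -1.16 (SE 0.47, edgeR adjusted p = 0.352), and -0.45 (SE 0.17, edgeR adjusted p = 0.194) without Ctrl shRNA replicate 2.

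*Trim25*, a ubiquitin and ISG15 ligase that acts on the RNA sensor RIG-I, measured 110, 84.9 and 99.5 CPM in the controls and 127, 132 and 126 CPM in the knockdown libraries. The knockdown libraries were all higher, with a log2 fold change of 0.39 (SE 0.11, edgeR adjusted p = 0.299) and 0.29 (SE 0.07, edgeR adjusted p = 0.0934) without Ctrl shRNA replicate 2. *Trim25* passed with DESeq2 without Ctrl shRNA replicate 2 (adjusted p = 0.0147), an alternative chosen after seeing the data, and over all alternatives its adjusted p ran from 0.00887 to 0.675. *Dtx3l* and *Parp9* encode partner proteins of an E3 ligase and ADP-ribosyltransferase complex, overlap by 682 bases on opposite strands, and had log2 fold changes of 0.31 and 0.11 (edgeR adjusted p = 0.338 and 0.457), and 0.22 and 0.07 without Ctrl shRNA replicate 2 (edgeR adjusted p = 0.190 and 0.629). *Usp18*, the protease that removes ISG15, measured 1.74, 0.51 and 1.81 CPM in the controls and 1.41, 1.19 and 1.69 CPM in the knockdown libraries. Its sign turned with Ctrl shRNA replicate 2, from a log2 fold change of 0.06 (edgeR adjusted p = 0.963) to -0.33 (edgeR adjusted p = 0.516) without it, where all knockdown libraries were below the controls. *Herc6*, the main ISG15 ligase in mice, had values of -0.16 and -0.075 (edgeR adjusted p = 0.491 and 0.702).

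Among the 7 interferon-inducible GTPases, a class that acts in defence against intracellular pathogens, *Ifi47* and *Gbp3* had the largest fold changes. *Ifi47* (ENSMUSG00000078920, chromosome 11, 49076587 to 49096974), an immunity-related GTPase, measured 8.59, 12.5 and 8.61 CPM in the controls and 14.4, 14.0 and 14.4 CPM in the knockdown libraries. The knockdown libraries lay above all controls, and the nearest control was Ctrl shRNA replicate 2. The log2 fold change was 0.53 (SE 0.17, edgeR adjusted p = 0.334) with all libraries and 0.72 (SE 0.10, edgeR adjusted p = 0.0165) without Ctrl shRNA replicate 2, a 1.65-fold rise. *Olfr56*, annotated over the whole of *Ifi47* on the same strand, had a mean of 0.18 CPM. Over all alternatives the adjusted p of *Ifi47* ran from 0.000154 to 0.675.

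*Gbp3* (ENSMUSG00000028268, chromosome 3, 142560026 to 142573209), a guanylate-binding protein gene, measured 1.78, 2.38 and 2.34 CPM in the controls and 3.39, 4.25 and 4.05 CPM in the knockdown libraries. All knockdown libraries were higher, with a log2 fold change of 0.85 (SE 0.21, edgeR adjusted p = 0.266), and 0.92 (SE 0.21, edgeR adjusted p = 0.0803) without Ctrl shRNA replicate 2, which missed the threshold that DESeq2 passed with all libraries (adjusted p = 0.0351). Over all alternatives the adjusted p of *Gbp3* ran from 0.0316 to 0.675. *Gbp7*, of the same family and on the same chromosome, went the other way, with 19.2, 22.6 and 18.3 CPM in the controls and 15.4 CPM in each knockdown library. *Gbp7* had a log2 fold change of -0.38 (SE 0.11, edgeR adjusted p = 0.314), and -0.30 without Ctrl shRNA replicate 2 (edgeR adjusted p = 0.140).

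*Irgm1*, *Igtp* and *Gbp2* changed sign with Ctrl shRNA replicate 2, from log2 fold changes of -0.12, -0.21 and -0.03 to 0.28, 0.23 and 0.50, and none passed the threshold in either fit (edgeR adjusted p = 0.868, 0.771 and 0.976, then 0.324, 0.505 and 0.243). The median of the 7 GTPases was -0.03 with all libraries and 0.28 without Ctrl shRNA replicate 2. *Igtp* and *Irgm2* overlap by 7974 bases on the same strand, so their reads may have been split or dropped.

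For the 6 antigen presentation genes the log2 fold changes had a median of -0.06, and -0.09 without Ctrl shRNA replicate 2, and none passed edgeR's threshold in either fit. *B2m* (ENSMUSG00000060802, chromosome 2, 122147686 to 122153083) measured 411, 2944 and 513 CPM in the controls and 421, 359 and 403 CPM in the knockdown libraries. Ctrl shRNA replicate 2 was far above the rest, and the other libraries of the groups overlapped. Its log2 fold change was -1.71 (SE 0.77, edgeR adjusted p = 0.359), and -0.24 (SE 0.11, edgeR adjusted p = 0.255) without Ctrl shRNA replicate 2.

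*H2-K1* measured 345, 296 and 394 CPM in the controls and 406, 472 and 443 CPM in the knockdown libraries, all above the controls, with a log2 fold change of 0.35 (SE 0.13, edgeR adjusted p = 0.349), and 0.24 (SE 0.09, edgeR adjusted p = 0.191) without Ctrl shRNA replicate 2. *H2-D1* measured 853, 784 and 980 CPM against 932, 884 and 823 CPM, which overlapped, with a log2 fold change of 0.01 (SE 0.13, edgeR adjusted p = 0.969) and -0.07 without Ctrl shRNA replicate 2. Class I heavy chain genes are close copies, and *H2-D1* and *H2-K1* share 12.8% and 9.63% of their 50-base sequences with other genes. They are also highly polymorphic between strains, the strain label was not checked against the reads, and the effect of any allele difference from the reference on their counts was not tested.

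The immunoproteasome subunit gene *Psmb9* measured 18.3, 27.2 and 20.1 CPM in the controls and 15.9, 12.5 and 16.7 CPM in the knockdown libraries, with no overlap and a log2 fold change of -0.54 (SE 0.19, edgeR adjusted p = 0.340), and -0.36 (edgeR adjusted p = 0.189) without Ctrl shRNA replicate 2. *Psmb8*, another such subunit, and *Tap1*, a chain of the peptide transporter, had log2 fold changes of -0.12 and 0.03 (edgeR adjusted p = 0.723 and 0.882), and -0.10 and -0.02 without Ctrl shRNA replicate 2 (edgeR adjusted p = 0.765 and 0.918). *Psmb9* and *Tap1* overlap by 212 bases on opposite strands.

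The 4 remaining interferon-inducible genes had a median of -0.38 on the log2 scale, or -0.12 without Ctrl shRNA replicate 2, and none passed edgeR's threshold in either fit. Of these, *Ifi35*, which encodes a leucine zipper protein, had the one positive log2 fold change. *Ifi35* measured 32.5, 42.0 and 30.7 CPM in the controls and 36.8, 37.0 and 35.3 CPM in the knockdown libraries, a log2 fold change of 0.05 (SE 0.13, edgeR adjusted p = 0.853) and 0.19 without Ctrl shRNA replicate 2 (edgeR adjusted p = 0.217). *Xaf1*, whose product binds the apoptosis inhibitor XIAP, measured 5.07, 25.7 and 7.32 CPM against 5.04, 6.00 and 5.56 CPM. *Xaf1* had a log2 fold change of -1.19 (SE 0.60, edgeR adjusted p = 0.382), and -0.17 (edgeR adjusted p = 0.646) without the high control. *Ifi27* and *Ifi44* had log2 fold changes of -0.52 and -0.23 (edgeR adjusted p = 0.355 and 0.755), and -0.26 and -0.07 without Ctrl shRNA replicate 2 (edgeR adjusted p = 0.237 and 0.925).

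Genes with and without an ISRE match in the window were also set side by side. Log2 fold changes had a median of -0.18 in the 16 tested genes with a match and of 0.01 in the 21 without one, and without Ctrl shRNA replicate 2 the medians were -0.01 and -0.04. These are descriptions of the windows available, with no test.

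A wider list of 110 other pathway genes was examined to place the 47. Of these, 88 were tested with all libraries, and 0 were higher and 0 lower at the adjusted threshold (edgeR, with 12 higher and 2 lower at an unadjusted p under 0.05, against 7.47% and 6.65% of all genes), with a median log2 fold change of 0.05. DESeq2 called 3 higher and 1 lower, against 1.69% and 1.12% of all genes with an adjusted p. Without Ctrl shRNA replicate 2, edgeR tested 89 and called 4 higher and 1 lower, against 1.11% and 0.675% of all genes. The 4 higher genes were *Ikbke*, *Cxcl10*, *Psmb10* and *Cd74*, and the lower gene was *Tlr7*.

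*Ikbke*, a kinase of the IRF3 pathway, measured 13.7, 13.2 and 14.2 CPM in the controls and 19.4, 21.6 and 23.3 CPM in the knockdown libraries, with no overlap. Its log2 fold change was 0.65 (edgeR adjusted p = 0.174) with all libraries and 0.61 (SE 0.11, edgeR adjusted p = 0.0336) without Ctrl shRNA replicate 2. *Psmb10*, the third immunoproteasome subunit gene, measured 36.2, 37.2 and 35.7 CPM against 50.4, 48.1 and 51.7 CPM. The 3 control values of *Psmb10* were close together and all knockdown libraries were higher, with a log2 fold change of 0.46 (edgeR adjusted p = 0.144) and 0.47 (SE 0.07, edgeR adjusted p = 0.0226) without Ctrl shRNA replicate 2. The other immunoproteasome genes *Psmb8* and *Psmb9*, above, had negative values.

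*Cxcl10*, a chemokine gene that interferon-γ and NF-κB induce, measured 3.52, 11.9 and 5.02 CPM in the controls and 11.3, 11.9 and 9.64 CPM in the knockdown libraries. Ctrl shRNA replicate 2 was as high as the knockdown libraries, and the log2 fold change was 0.70 (edgeR adjusted p = 0.440) with it and 1.35 (SE 0.18, edgeR adjusted p = 0.0142) without it. *Cd74*, the class II invariant chain, measured 8.59, 15.1 and 7.67 CPM against 12.1, 16.0 and 13.1 CPM. Ctrl shRNA replicate 2 again lay among the knockdown libraries, and the log2 fold changes with and without it were 0.40 (edgeR adjusted p = 0.484) and 0.75 (SE 0.15, edgeR adjusted p = 0.0478). *Tlr7*, an endosomal receptor for single-stranded RNA, measured 22.3, 31.7 and 21.3 CPM against 14.8, 15.7 and 12.2 CPM. All knockdown libraries were lower for *Tlr7*, with log2 fold changes of -0.82 (edgeR adjusted p = 0.251) and -0.62 (SE 0.12, edgeR adjusted p = 0.0421). Over all alternatives the adjusted p ran from 0.000631 to 0.675 for *Ikbke*, from 0.000117 to 0.645 for *Psmb10*, from 3.99e-08 to 0.701 for *Cxcl10*, from 0.00134 to 0.776 for *Cd74* and from 0.00154 to 0.675 for *Tlr7*.

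**Figure D3:**
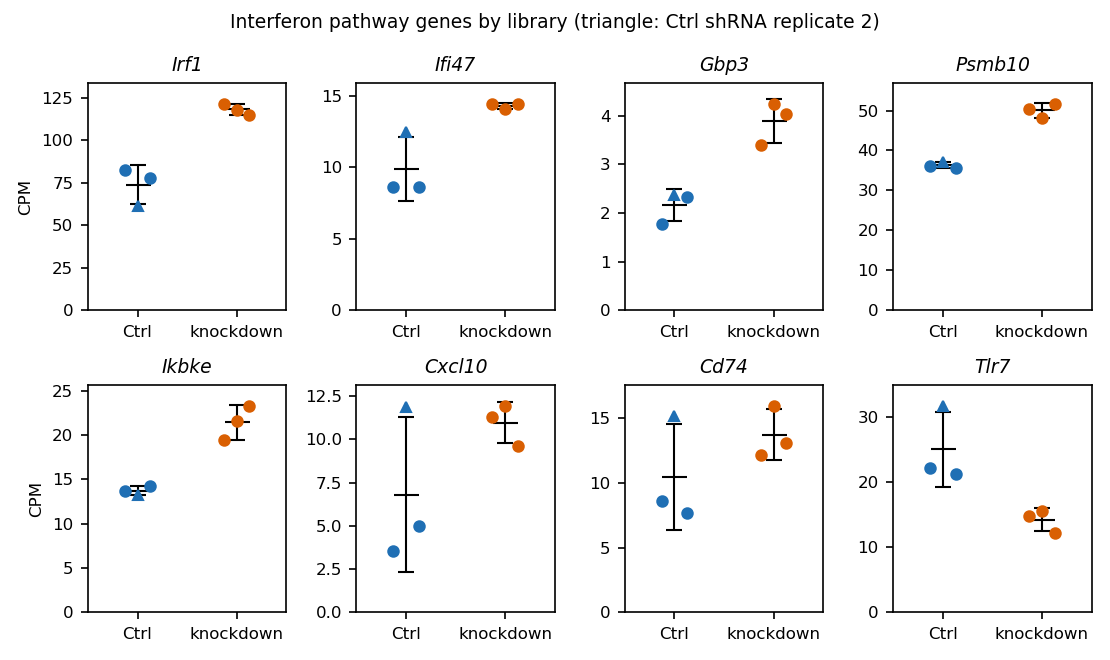
CPM of 8 genes in each library, with the mean and SD of each group (n = 3 each); the triangle is Ctrl shRNA replicate 2. The groups do not overlap for *Irf1*, *Ifi47*, *Gbp3*, *Psmb10*, *Ikbke* and *Tlr7*, and for *Cxcl10* and *Cd74* Ctrl shRNA replicate 2 lies among the knockdown libraries.

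Ctrl shRNA replicate 2 lay above the other 5 libraries for 22 of the 44 tested genes, below them for 12 and within their range for 10, while over all genes tested 34.4% lay above and 38.6% below. It was at least 2-fold above the median of the others for 5 genes (*B2m*, *Xaf1*, *Isg15*, *Rtp4* and *Bst2*) and at least 2-fold below for 2 (*Oas1a* and *Usp18*), on the log2 scale of CPM + 0.5. The share of all genes at that size was not computed, so these counts describe the listed genes only. The genes above had a median length of 3157.5 bases, those below 5129 bases, and over all genes tested the corresponding lengths were 2784 and 4644 bases. The summed CPM of the 47 genes was 2605, 5317 and 2945 in Ctrl shRNA replicates 1, 2 and 3 and 2837, 2726 and 2741 in the knockdown libraries. Without the antigen presentation genes the sums were 898, 1181 and 949 CPM against 973, 928 and 974 CPM.

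**Figure D4:**
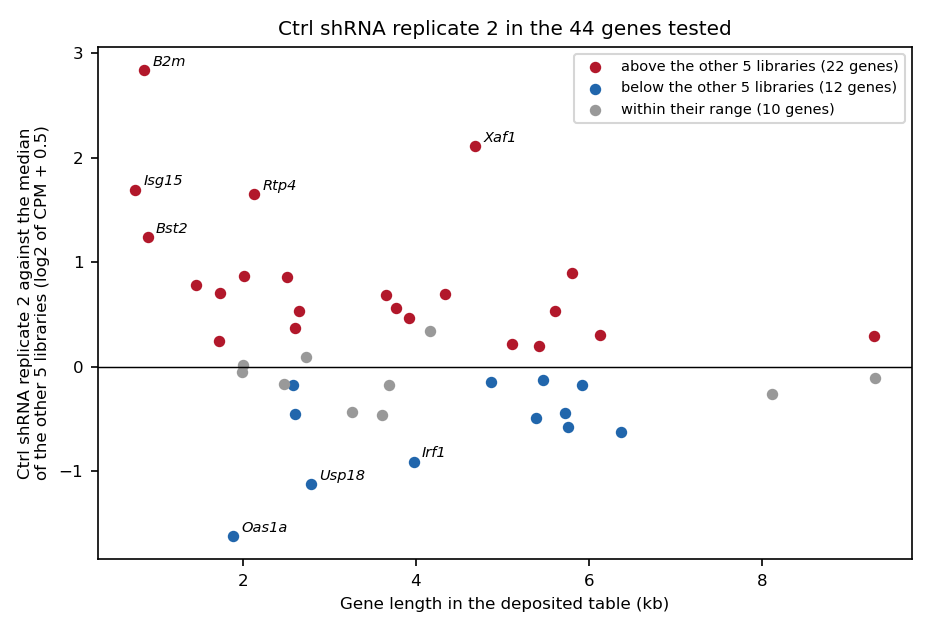
Difference of Ctrl shRNA replicate 2 from the median of the other 5 libraries, on the log2 scale of CPM + 0.5, against gene length in kb for the 44 genes tested; each point is 1 gene. The 22 genes above the other libraries have a median length of 3157.5 bases, with *B2m* highest, and the 12 below one of 5129 bases, with *Oas1a* lowest.

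Markers of immune cells, which express many of these genes, were at or near 0. Of 10 macrophage and other leukocyte markers, 6 to 9 had 0 counts in each library, *Ptprc* and *Adgre1* were at 0 in all 6, and their summed level was 1.92 to 2.58 CPM in the controls and 2.57 to 3.06 CPM in the knockdown libraries, most of it *Cd68*. The 12 lung epithelial and alveolar type 2 markers summed to 838 to 899 CPM in the controls and 786 to 839 CPM in the knockdown libraries, with *Nkx2-1* at 277 to 343 CPM over the 6 libraries, while *Sftpd* was at 0 in all and *Sftpa1* had counts in 1 library. The 5 fibroblast markers, nearly all of it *Dcn*, summed to 346, 1233 and 377 CPM in the controls and 317 to 345 CPM in the knockdown libraries, so Ctrl shRNA replicate 2 was high there as well. The 4 endothelial markers summed to 31.9 to 45.8 CPM, nearly all of it *Tek*. The part of these differences in the results above was not tested.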

How the data were processed

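RNA-seq of 6 libraries was used, 3 Ctrl shRNA and 3 Idh3α shRNA + Slc25a1 shRNA, grouped from the sample labels. The authors deposited raw counts of reads per gene and FPKM values for 54532 genes, with coordinates and gene length. HISAT2 2.0.5, StringTie 1.3.3b and featureCounts 1.5.0-p3 and the build mm10 are named in the submitters' processing notes, without roles. Use of strand was not stated, and the coordinates matched GENCODE M21 (GRCm38) for 98.3% of the 54409 genes found there. From the counts, genes kept by filterByExpr and scaled with TMM factors went into edgeR 4.0.16 (quasi-likelihood test, R 4.3.3), two-sided, with no covariate and Benjamini-Hochberg adjustment over all genes tested (threshold 0.05). An exact permutation test of 3 against 3 samples cannot give a p under 0.1. CPM use the same factors, and 95% intervals come from the same fit. CPM per kb use the deposited gene length. Total counts were 27273502 to 28535653, and floors cover counting error only. Every pair of replicates differed by more than sampling noise (chi-square per degree of freedom of 5.67 or more).

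The 47 genes, the role groups, the 110 other pathway genes, the markers and the motifs were chosen from general knowledge with earlier results of these data known. Values per sample were given by rule for the targeted genes, for genes past the threshold with all libraries or without Ctrl shRNA replicate 2, for the tested gene with the largest positive and negative log2 fold change of each role group, and for the 3 genes with the highest control level. Other genes with values, such as *Ifit1*, *Psmb9*, *Rsad2*, *Usp18* and *Ifnar1*, were chosen after their values were seen. Some items are not reported here. Alternatives were other size factors, no scaling beyond library size, all genes kept, a minimum of 10 counts in all 6 libraries, DESeq2 1.42.0, limma 3.58.1 with sample quality weights, limma on log2(FPKM + 1) and log2(FPKM + 0.1) with a mean FPKM of at least 0.5 or no filter, the replicate block and each library left out. DESeq2 without Ctrl shRNA replicate 2 was added after seeing the data. Tables and figures used Python 3.11.15, pandas 2.3.3 and matplotlib 3.10.9.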

Additional observations from a re-analysis of the deposited data

How the results depend on the processing

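The median log2 fold change of the 47 genes stayed between -0.13 (without Ctrl shRNA replicate 1) and 0.14 (library size only), and scaling by library size alone moved the median of all genes tested from -0.01 to 0.16. The number of genes higher, 0 by edgeR with all libraries, was 2 with DESeq2, 6 with limma's sample quality weights, 4 with DESeq2 without Ctrl shRNA replicate 2, and 0 to 2 when each library was left out, the 2 being without Ctrl shRNA replicate 2. The number lower was 0, except 2 with the quality weights. Of the 110 other pathway genes, DESeq2 called 3 higher and 1 lower, the quality weights called 12 higher and 3 lower of 88 tested (8.67% and 6.34% of all genes), and DESeq2 without Ctrl shRNA replicate 2 called 9 higher and 2 lower of 74 with an adjusted p (4.22% and 2.84% of all genes). With each library left out 0 to 4 were higher and 0 to 1 lower. Of 373 recomputed values of the 22 genes given values by rule, 328 kept their direction and side of the threshold, 39 moved past it and 6 in 3 genes changed sign: *Oas1a* to -0.069 (quality weights), *Ifi35* within -0.046 to 0.19 with each library left out, and *H2-D1* to -0.11 (quality weights), -0.062 (DESeq2 without Ctrl shRNA replicate 2) and within -0.069 to 0.090 with each library left out. Over all of the 44 tested genes, 11 differed in sign with and without Ctrl shRNA replicate 2, among them *Usp18*, *Irgm1*, *Igtp* and *Gbp2*. The cause was not tested. Replicate numbers did not pair the samples (correlations of -0.21, -0.16 and 0.02 between same-numbered libraries, and 1 of 6 libraries closest to its own number). The replicate block called 0 of the 47 genes in either direction, with a median of -0.02. The baseline median was 3.26 by deposited FPKM as well, and 2.58 without Ctrl shRNA replicate 2.

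The spread of 3 libraries a group limits these results, and edgeR's biological coefficient of variation was 0.263 with all libraries and 0.102 without Ctrl shRNA replicate 2. Genes under 1 CPM per kb rest on few counts, and *Oas3* and *Mx1* did not pass edgeR's count filter.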

Other observations

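*Cxcl9*, a chemokine gene induced by interferon-γ, was singled out after its values were seen. It had 1, 0 and 2 counts in the Ctrl shRNA libraries and 10, 9 and 8 counts in the knockdown libraries, so the groups did not overlap, but the counts were too few for the filter. In the edgeR fit with no count filter its adjusted p was 0.472.

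Of the interferon receptor genes, *Ifngr2*, a chain of the interferon-γ receptor that was also chosen after its values were seen, measured 115, 102 and 127 CPM in the controls and 151, 148 and 146 CPM in the knockdown libraries. All knockdown libraries were higher, with a log2 fold change of 0.37 (edgeR adjusted p = 0.288) and 0.28 without Ctrl shRNA replicate 2 (edgeR adjusted p = 0.0856). *Ifngr2* passed the threshold with limma and sample quality weights (adjusted p = 0.0229) and with DESeq2 without Ctrl shRNA replicate 2 (adjusted p = 0.00981), and over all alternatives its adjusted p ran from 0.00981 to 0.675.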
